A study of Homo sapiens with 27 samples.

Results

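The libraries described here come from 2 lines of LN-229 after 3 exposures to temozolomide (TMZ), an alkylating drug used against glioblastoma. They were chosen by label, as all libraries of the MGMT line and of the WT line with 3 TMZ exposures: 3 of each, 6 of the 27 in the series. LN-229 is an established human glioblastoma cell line. The MGMT line is LN-229 transfected with MGMT, and the line called WT is its transfection control. Cells of both lines met TMZ at 1 mM 3 times, 4 h apart, and their DNA was extracted 24 h after the initial exposure. Each line is 1 transfected line, so a difference between them can also be a difference between 2 separately grown LN-229 populations. The series' text calls the replicates biological, and libraries of the lines are paired here by replicate number.

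Libraries of the same lines served as background. Solvent controls held 3 exposures to 1% DMSO, with 3 libraries per line. Cells given TMZ 1 time, with DNA also taken 24 h later, gave 3 libraries per line. Naked DNA, purified from each line and treated with 1 mM TMZ outside cells, gave 1 library for the MGMT line and 1 for the WT line, which carry the replicate numbers 3 and 2 and so do not match by number. To read the bases next to a marked G, 1 naked DNA library of non-transfected WT cells was used as well. So were the solvent controls with 1 exposure, 3 per line. Elsewhere, naked DNA means the libraries of the MGMT and WT lines. The question was how the map of methylated guanine differed between cells with and without added MGMT after repeated drug.

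TMZ breaks down to a species that puts methyl groups on DNA bases, and the O6-methyl on guanine is the lesion tied to its toxicity. MGMT (O6-methylguanine-DNA methyltransferase) takes the methyl group from guanine onto a cysteine of its own and is used up by each reaction, so a cell's repair by this route is limited by its supply of the protein. A lesion that stays pairs with thymine at replication and engages mismatch repair, while base excision repair handles methyl groups at other ring positions. In O6-MeG-seq, fragments with the lesion are captured by antibody and a polymerase that stalls at the lesion marks its position to the base.

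The bases around marked positions show what the assay reports. Over the 6 libraries, 24159309 autosomal G positions were marked, of which 97.0% were marked in 1 library, 2.89% in 2, and 8 positions in all 6. Reference sequence was at hand for windows of 250 bases before to 50 after gene starts (RefSeq, GRCh38.p14), where 30 G positions with 10 known bases on each side were marked in 4 or more of the 6 libraries. A purine preceded the marked G at 30 of these 30, and the base was G at 21 of them (70.0%), whereas 58.4% of all G bases in the windows follow a purine. The 2 sites marked in 5 libraries and the 8 that were also marked in naked DNA follow, 5′ to 3′ on the marked strand, with the marked G in capitals.

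C1QTNF1-AS1 (chr17:79027832-79027852, plus strand): ccagagctggGcttggcatct
NTSR1-AS1 (chr20:62735314-62735334, minus strand): gggctacctgGgagccccaca
NFIA (chr1:61082428-61082448, plus strand): ggaggcggagGcgggcgcgcg
LOC107985261 (chr1:211548300-211548320, minus strand): cctgctgtggGctaggcatca
KIF2A (chr5:62306051-62306071, minus strand): cagctctgcaGcggggtgggc
ZDHHC6 (chr10:112446960-112446980, minus strand): ggaggtttgaGgcggcgaacc
SNX15 (chr11:65027464-65027484, plus strand): cggaggctggGccggaggggt
AHCY (chr20:34303313-34303333, plus strand): ctcagtctggGaacaggaact
LOC105373014 (chr22:34757489-34757509, plus strand): acgttgttagGgaaggacaag
SSTR3 (chr22:37210891-37210911, minus strand): gaacggcttgGctgttcacat

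The first 2 sites were each marked in 2 MGMT and 3 WT libraries, and neither was marked in naked DNA or in a solvent control. They lie 187 bases before the start of C1QTNF1-AS1 and 35 bases after that of NTSR1-AS1. Of the other 8, the sites at NFIA (a transcription factor), KIF2A (a kinesin) and SSTR3 (a somatostatin receptor) were marked in 1 MGMT and 3 WT libraries. The site at LOC105373014 was marked in 3 MGMT libraries and 1 WT library, and the remaining 4 in 2 of each, with that at SNX15 (a sorting nexin) marked in 1 solvent control as well. Of all 30 recurrent sites, 10 were marked in more WT libraries, 2 in more MGMT libraries and 18 in as many of each. The WT libraries held 3524253, 5480962 and 4981500 G sites and the MGMT libraries 2776340, 5353984 and 2836517, so WT libraries had more positions to share. These sites were picked for recurrence in these libraries, and the counts are a description.

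The deposited lists hold each position and strand once, so a value is a number or share of distinct positions and not an absolute amount of lesions. Sites on chromosomes 1 to 22 and the mitochondrial chromosome (M) with a score of at least 30, on a scale of 0 to 42, were used, which kept 82.9% to 85.8% of sites in the 6 libraries. They held 4702141 to 8682648 sites each. At these numbers counting error is far below the spread between replicates for genome-wide shares, and intervals from counts would cover counting error only. G sites were near evenly divided between strands, with at most 50.1% on the plus strand. CDKN2A and CDKN2B, cell cycle inhibitor genes on 9p that LN-229 is known to lack, had 0 G sites in all 6 libraries and in both naked DNA libraries, which allows up to 3 sites in a library. Same-numbered MGMT and WT libraries shared 8680, 11985 and 10002 positions at bases other than G, against 2814 to 6706 for pairs with different numbers. The shared positions were 0.347%, 0.361% and 0.538% of those of the MGMT libraries and 0.366%, 0.391% and 0.337% of those of the WT libraries.

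The share of marked sites at G was lower in the MGMT line in each of the 3 pairs. It was 52.5%, 61.7% and 60.3% in MGMT replicates 1 to 3 and 59.7%, 64.1% and 62.6% in WT replicates 1 to 3. MGMT replicate 1 lay below all other libraries, and the other 2 MGMT libraries lay within the range of the WT line. The means were 58.2% ± 4.93 and 62.1% ± 2.24 (SD, n = 3 each), and the pair differences were -7.15, -2.42 and -2.28 percentage points, with a mean of -3.95 ± 2.77 (SD). The exact two-sided sign-flip test gave p = 0.25, the smallest that 3 pairs allow (0.357 after Benjamini-Hochberg adjustment over 10 single-value comparisons). This test on 3 pairs therefore cannot pass 0.05, and for the single values below the size, the spread and the count of pairs carry the comparison. Without pair 1 the mean difference was -2.35 points.

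The mean difference between lines under solvent was smaller, and that after 1 TMZ exposure was larger. Solvent controls with 3 exposures had a G share of 19.0% to 23.7%, with pair differences of -1.55, -0.237 and -0.284 points. After 1 TMZ exposure the means were 38.0% in the MGMT line and 46.4% in the WT line, and the pairs differed by -7.42, -9.28 and -8.61 points, a mean of -8.44 ± 0.942 (SD). An exact two-sided permutation test of the 3 pairs after 1 exposure against the 3 after 3 exposures gave p = 0.1, the smallest it can give. 1 library with 1 exposure goes against its label, which limits this comparison. The libraries numbered 1 with 1 exposure, of both lines, also kept fewer sites at a score of at least 30. They kept 45.9% to 64.2%, against 73.9% to 84.7% in the other libraries with 1 exposure. WT solvent control replicate 1 was the highest of the other solvent libraries with 1 exposure, at 27.8%. The library labelled MGMT solvent control replicate 1 had a G share of 43.7%, above the 37.4% of the library labelled MGMT TMZ replicate 1, while the other 5 solvent libraries with 1 exposure had 19.1% to 27.8%. Its purine preference in promoter windows (log2 of marking after a purine over marking after a pyrimidine) was 1.20, against -0.17 and -0.13 in the other 2 MGMT solvent libraries with 1 exposure. The library labelled MGMT TMZ replicate 1 had 1.00, within the 0.78 and 1.32 of the other 2 MGMT TMZ libraries with 1 exposure and above all 3 WT solvent libraries with 1 exposure, at 0.54, -0.18 and -0.081. Both MGMT libraries numbered 1 with 1 exposure thus had the preference seen after TMZ. Whether labels were exchanged was not tested, and they were kept as given. The library labelled solvent differed from WT TMZ replicate 1 by -1.11 points. With an exchange, pair 1 would thus differ less after 1 exposure than after 3, where it was -7.15 points. Without pair 1 the mean difference after 1 exposure was -8.95 points (exact permutation p = 0.2).

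From 1 to 3 exposures, the G share was higher by 15.2, 29.0 and 16.4 points in MGMT replicates 1 to 3 and by 14.9, 22.2 and 10.0 points in WT replicates 1 to 3. The mean increments were 20.2 ± 7.69 and 15.7 ± 6.10 points (SD, n = 3 each), and the pairs differed by 0.275, 6.87 and 6.33 points, with a mean of 4.49 ± 3.66 (no test). The value of pair 1 rests on the doubted library labels, since the increment of MGMT replicate 1 from the library labelled solvent would be 8.84 points, below that of WT replicate 1. Naked DNA had G shares of 67.8% (MGMT line) and 68.2% (WT line), above all 6 libraries of cells. When the solvent control of the same line and number was scaled to the sites at other bases and subtracted, G sites in excess of background made up 39.1%, 52.5% and 51.0% of sites in the MGMT line and 47.2%, 55.3% and 53.7% in the WT line. The mean pair difference was then -4.55 ± 3.10 points (SD).

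**Figure D1:**
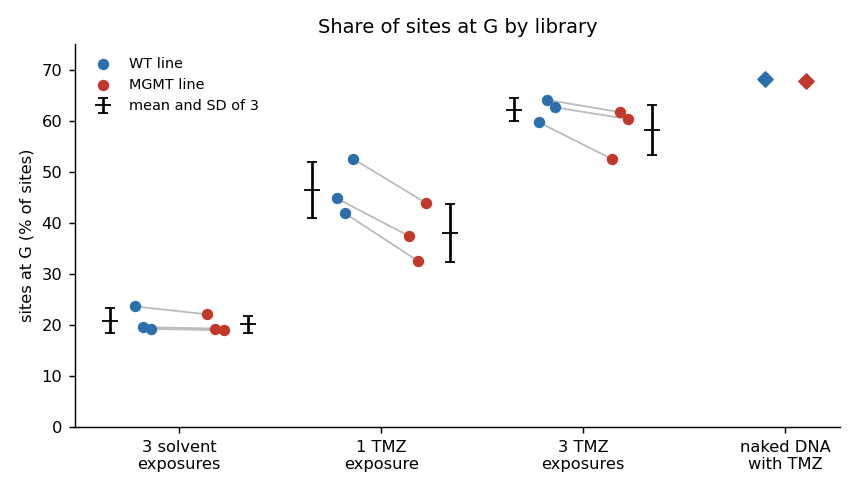
Share of sites at G (y axis, % of sites) in each library of the MGMT line (red) and the WT line (blue), with same-numbered libraries joined by grey lines and naked DNA as diamonds; black bars give the mean and SD of 3. All 3 lines between partners slope downward from WT to MGMT after 1 and after 3 TMZ exposures, with means of 38.0% and 46.4%, then 58.2% and 62.1%; the label of MGMT TMZ replicate 1 with 1 exposure is in doubt.

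The share of marked G bases with a purine before them was lower in the MGMT line in all 3 pairs, with differences of -0.955 to -1.63 percentage points. This base was read where the preceding position was itself marked in a solvent or naked DNA library, which was so for at most 3.87% of G sites, from 107022 to 210742 per library. These were the solvent libraries with 1 or 3 exposures and the naked DNA libraries, including that of non-transfected WT cells. Sites on M were included. A purine preceded 84.0%, 86.5% and 86.8% of such sites in MGMT replicates 1 to 3 and 85.6%, 87.7% and 87.7% in WT replicates 1 to 3. The ranges of the lines overlapped, since WT replicate 1 lay below MGMT replicates 2 and 3. The mean pair difference was -1.26 ± 0.340 points (SD, n = 3; exact sign-flip p = 0.25, adjusted 0.357).

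By base, the difference was larger for a preceding G than for a preceding A. G preceded 53.7% of sites in the MGMT line and 55.2% in the WT line, a mean pair difference of -1.48 ± 0.496 points (SD). A preceded 32.0% and 31.8%, a difference of 0.219 ± 0.664. T preceded 11.4% and 10.5%, a difference of 0.945 ± 0.281 points, and C 2.81% and 2.49%, a difference of 0.315 ± 0.136. T and C were each higher in the MGMT line in 3 of 3 pairs, and A in 1 of 3. C followed the marked G at 24.8% ± 1.24 of sites in the MGMT line and 25.3% ± 0.721 in the WT line (SD, n = 3 each), with pair differences of 0.0339, -1.08 and -0.344 points, which lay within the spread (exact sign-flip p = 0.5, adjusted 0.556).

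The size of the difference in the purine share moved with the reference group. With neighbours read from naked DNA alone the mean pair difference was -0.818 points, and from solvent controls alone -1.45. Reading from naked DNA alone does not use the solvent library whose label is in doubt. The level of the purine share moved as well. Over the 6 libraries it was 90.2% to 92.8% from naked DNA alone and 74.8% to 79.4% from solvent controls alone. The level thus depends on which bases the reference libraries mark, and it is no estimate of the preference in the genome. With naked DNA alone and the solvent control subtracted, a purine preceded 94.8%, 94.6% and 95.2% of excess G sites in MGMT replicates 1 to 3 and 95.5%, 95.1% and 95.9% in WT replicates 1 to 3. The MGMT line was again lower in each pair, with differences of -0.729, -0.485 and -0.773 points and a mean of -0.662. Solvent controls with 3 exposures, read from naked DNA alone, had a purine before 72.9% (MGMT line) and 73.2% (WT line) of G sites. Their pair differences of -2.46, -0.396 and 1.89 points had mixed signs and a wide spread (mean -0.324 ± 2.18, SD). An exact permutation test of these against the TMZ pairs read the same way gave p = 0.7. Both the G share and the purine share were thus lower in the MGMT line in 3 of 3 pairs before and after subtraction. The part that background sites play in the remaining difference was not tested.

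Position by position, the base just before the G stood apart in both lines. A purine stood there at 86.3% (MGMT line) and 87.5% (WT line) of autosomal sites with that base known in either kind of reference library, against 49.8% to 61.1% at the other 19 positions up to 10 bases away. These levels also depend on the reference libraries. The pair difference was -1.23 ± 0.370 points (SD) there and -1.13 ± 0.688 at the second base before the G, where the means were 57.6% and 58.8%. At the sixth base after the G it was -0.835 ± 0.558 and at the eighth before it -0.712 ± 0.143. The purine share was lower in the MGMT line in 3 of 3 pairs at 12 of the 20 positions, on both sides of the G, and the mean differences not named here lay between -0.771 and 0.431 points.

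**Figure D2:**
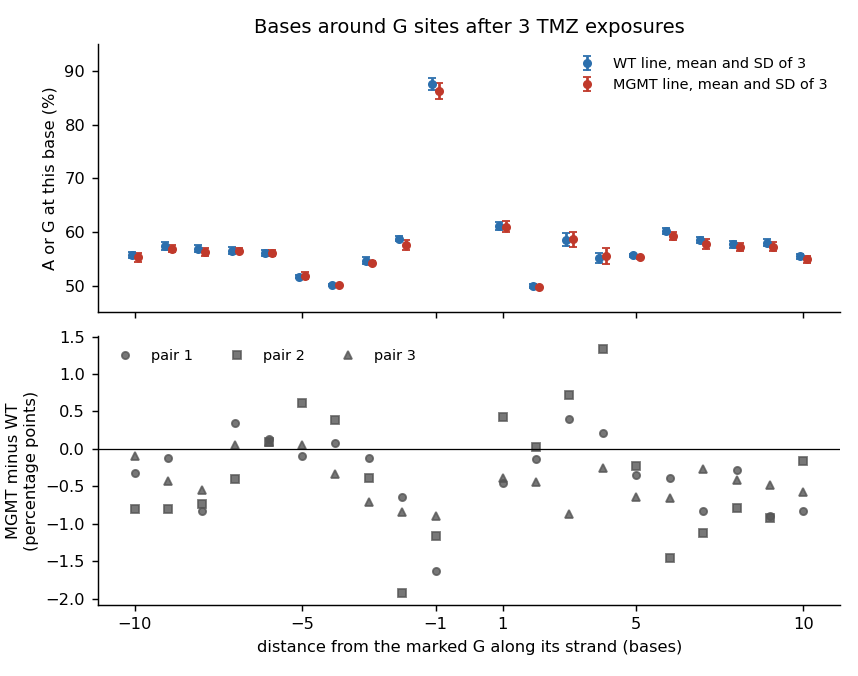
Upper panel, percentage of autosomal sites with A or G at each base from 10 before to 10 after the marked G, for both lines (mean and SD of 3). Bases were read from solvent and naked DNA libraries, and the levels depend on that reference. Lower panel, MGMT minus WT in each of the 3 pairs, in percentage points. The base before the G reaches 86.3% and 87.5%, and all 3 pairs are below 0 there and at 11 of the other 19 positions, on both sides of the G.

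Of the 16 contexts made by the G and both neighbours, 0 passed an adjusted p of 0.05 (0% of contexts; exact sign-flip tests, smallest adjusted p 0.533, and 0 with an unadjusted p under 0.05, since 0.25 is the smallest possible). Contexts are given as a share of the 8601 to 14044 G sites per library with both neighbours known. Sites on M were included, and M held 3320 to 4072 G sites per library in all, so M can make up a large part of these sites. Whether M accounts for part of the context differences was not tested. GGC had the largest negative mean difference. It was 10.5%, 11.4% and 11.4% of these sites in MGMT replicates 1 to 3 and 11.2%, 12.4% and 12.4% in WT replicates 1 to 3, lower in each pair, with a mean difference of -0.880 ± 0.183 points (SD). GGG followed with a mean difference of -0.622 ± 0.504 points (lower in 3 of 3 pairs) and AGC with -0.292 ± 0.356 (lower in 2 of 3). The largest positive mean differences were 0.332 ± 0.611 points for AGA, 0.302 ± 0.127 for TGT and 0.249 ± 0.253 for AGT. Of these TGT was higher in 3 of 3 pairs and the other 2 in 2 of 3.

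Promoter windows gave a second reading of the contexts in which the number of G bases available was known. Each library had 14313 to 31961 G sites in these windows. The measure was the share of the G bases of a context that was marked, per 1000 bases and per 1000000 G sites of the library. In the WT line GGG had 1.84 ± 0.194, GGC 1.75 ± 0.133, GGT 1.75 ± 0.150 and AGG 1.72 ± 0.154, while TGA had 0.342 ± 0.0255, TGT 0.370 ± 0.0235 and CGA 0.378 ± 0.0480 (SD, n = 3). The MGMT line kept the division, with 1.70 ± 0.212 for GGG, 1.79 ± 0.338 for GGT and 0.333 ± 0.0187 for TGA. All 8 contexts with a purine before the G had higher means than all 8 with a pyrimidine, in both lines.

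Between the lines 0 of 16 promoter contexts passed (0% of contexts; exact sign-flip tests, smallest adjusted p 0.667, 0 with an unadjusted p under 0.05). In the MGMT line 5 contexts were lower in 3 of 3 pairs, with mean differences of -0.104 ± 0.0263 for AGA, -0.115 ± 0.0710 for AGG, -0.119 ± 0.0885 for GGA, -0.119 ± 0.0479 for GGC and -0.00891 ± 0.00877 for TGA (SD). Only TGT was higher in 3 of 3, by 0.0301 ± 0.00717. Among the sites with both neighbours known, which include M while promoter windows do not, TGT was also higher and GGC lower in 3 of 3 pairs. AGA and TGA, lower in promoters, had positive mean differences among those sites (0.332 and 0.220 points). The log2 ratio of marking after a purine over marking after a pyrimidine was 1.41, 1.53 and 1.53 in MGMT replicates 1 to 3 and 1.44, 1.70 and 1.58 in WT replicates 1 to 3. The MGMT values were lower within each pair, and the ranges overlapped. The mean pair difference was -0.085 ± 0.077 on the log2 scale (SD; exact sign-flip p = 0.25, adjusted 0.357), and -0.041 without pair 2. After 1 TMZ exposure the difference was -0.32 ± 0.090, with means of 1.03 in the MGMT line and 1.35 in the WT line, and the exact permutation test against the pairs after 3 exposures gave p = 0.1, the smallest it can give. Without pair 1, whose labels are in doubt, the difference after 1 exposure was -0.30 (exact permutation p = 0.2). Solvent controls with 3 exposures showed no purine preference, with means of -0.12 and -0.059. Their pair differences were -0.22, 0.022 and 0.0012, a mean of -0.065 ± 0.13 (SD). An exact permutation test of these against the pairs after 3 TMZ exposures gave p = 0.7.

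**Figure D3:**
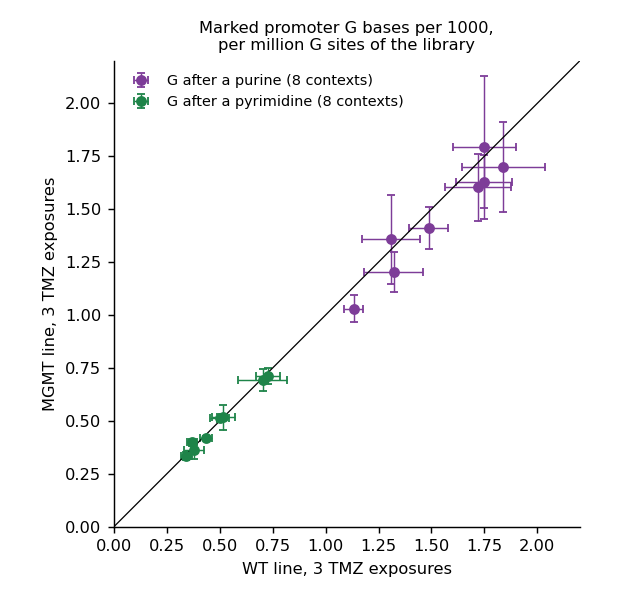
Marked G bases per 1000 G bases and per 1000000 G sites in promoter windows, WT line (x axis) against MGMT line (y axis) after 3 TMZ exposures, 1 point per context with the SD of 3 libraries as bars. The 8 contexts after a purine lie above 1 and the 8 after a pyrimidine below 0.75 in both lines, and most points lie close to the line of equal values.

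In the spread of G sites over genes and other sequence the lines had mean corrected differences of -0.024 to -0.069 log2 units for genes, gene-rich bins, GC-rich bins and gene starts, and single pairs as low as -0.12. Regional values were corrected by the ratio of the naked DNA libraries, MGMT line over WT line, because DNA methylated outside cells carries differences of copy number and of mapping between the lines but no repair in cells. That correction rests on 1 library per line. It does not subtract background sites, and the part that these play in the regional differences was not tested. The density of G sites inside protein-coding genes over that elsewhere was 0.37, 0.40 and 0.41 (log2) in MGMT replicates 1 to 3, and 0.38, 0.41 and 0.43 in WT replicates 1 to 3. Naked DNA had 0.41 in the MGMT line and 0.40 in the WT line, and solvent controls with 3 exposures had a mean of 0.25 in each line. The corrected difference was -0.024 ± 0.011 (SD, n = 3), lower in the MGMT line in 3 of 3 pairs. For the fifth of 1 Mb bins with most gene bases over the fifth with fewest it was -0.039 ± 0.020, also lower in 3 of 3. For the fifth with the highest GC content over the lowest it was -0.069 ± 0.034, lower in 3 of 3. The GC log2 ratio itself had means of 0.97 (MGMT line) and 1.00 (WT line) after TMZ. In solvent controls with 3 exposures the means were 0.39 and 0.42. Each of these corrected differences had an exact sign-flip p of 0.25 (adjusted 0.357).

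Pair 2 had the smallest of these differences each time, and the solvent pairs, corrected the same way, varied more than the TMZ pairs. Their mean difference between GC-rich and GC-poor bins was -0.074 ± 0.17 (SD), with -0.26 in pair 1. With solvent pairs in place of naked DNA as the correction, the GC difference after TMZ was 0.0057, that of genes -0.013 and that of gene-rich bins -0.014, each with mixed signs among pairs. Without any correction they were -0.031, -0.015 and -0.027. Within 1 kb of gene starts the corrected log2 difference was -0.069 ± 0.082, lower in 2 of 3 pairs (exact sign-flip p = 0.5, adjusted 0.556). It was -0.043 without pair 3, -0.12 without pair 2 and -0.017 with the solvent correction. G sites on the transcribed strand of genes were fewer than on the coding strand in both lines, with a log2 ratio of -0.18 ± 0.0020 in the MGMT line and -0.18 ± 0.021 in the WT line. The corrected difference of -0.0055 ± 0.019 had mixed signs among pairs and turned positive without the correction (0.0021) or without pair 2 (0.0041). Naked DNA had strand ratios of -0.15 and -0.16.

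Mitochondrial DNA was measured by the share of G sites that lie on M, which is another measure than the share of sites at G. The log2 of the percentage of G sites on M was -2.94, -3.72 and -3.09 in MGMT replicates 1 to 3 and -3.17, -3.82 and -3.65 in WT replicates 1 to 3. The MGMT line was higher in each pair, and the ranges overlapped. After correction by naked DNA the pair differences were 0.40, 0.27 and 0.72, a mean of 0.46 ± 0.23 (SD; exact sign-flip p = 0.25, adjusted 0.357). Without correction the mean was 0.29. After 1 TMZ exposure the corrected mean difference was 0.51 ± 0.52 (0.80 without pair 1), and under solvent -0.12 ± 0.29. The log2 percentage itself averaged -1.10 (MGMT line) and -0.81 (WT line) in solvent controls with 3 exposures, above all 6 treated libraries. The part that background sites play in the difference on M was not tested.

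The high share of G positions marked on this chromosome limits the comparison. Each library held 3320 to 4072 G sites on M, 62.0% to 76.1% of the 5354 G positions marked there in any library of the series, and naked DNA reached 81.2% and 80.9%. A list of distinct positions cannot grow in proportion to lesions at such levels, and the share on M ran in the reverse order of the total G sites over the 6 libraries. With the number of hits per position estimated from the unmarked share, the corrected difference was 0.37. At most 28.8% of the G sites on M were on the plus strand in any of the 6 libraries.

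Whole chromosomes differed between the lines in every kind of library, and nearly all of that was also in naked DNA. Before correction 21 of 22 chromosomes differed in the cells after TMZ (95.5% of chromosomes; limma with the replicate number as a block). Chromosome 15 had a log2 ratio, MGMT over WT share of G sites, of 0.32 (SD 0.0063, n = 3 pairs) after TMZ and 0.31 in naked DNA. The ratio was 0.26 and 0.24 on chromosome 1, 0.21 and 0.21 on chromosome 2, and -0.31 and -0.30 on chromosome 20. Sites at other bases in the same 6 libraries gave 0.32, 0.26, 0.21 and -0.33 on these 4 chromosomes. Over the 22 chromosomes the ratios after TMZ and in naked DNA, which share the lines' DNA content, had a Pearson correlation of 0.98.

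After correction 3 of 22 chromosomes passed (13.6%; limma, Benjamini-Hochberg over 22). The fit pooled the variance and gave all 22 chromosomes the same SE, so the SE is not the spread of each one's own pairs. The SD of the corrected pairs ran from 0.0026 on chromosome 6 to 0.026 on chromosome 21. It was 0.0085, 0.0093 and 0.015 on chromosomes 5, 18 and 22. Chromosome shares of 1 library also depend on each other. Chromosome 5 had pair log2 ratios of -0.082, -0.083 and -0.068 after TMZ and -0.14 in naked DNA. The deficit in the MGMT line was thus smaller in treated cells, a corrected difference of 0.065 (SE 0.013, adjusted p = 0.000193). Chromosome 18 had -0.060, -0.070 and -0.051 after TMZ and -0.11 in naked DNA, a corrected difference of 0.051 (SE 0.013, adjusted p = 0.00328). Chromosome 22 had -0.091, -0.10 and -0.12 after TMZ and -0.066 in naked DNA, a corrected difference of -0.038 (SE 0.013, adjusted p = 0.0382). The other 19 lay between -0.032 and 0.019, with a smallest adjusted p of 0.0885.

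These 3 calls held to different degrees. Chromosome 5 stayed past the threshold without any one replicate pair, with a log2 difference of 0.060 to 0.068. Chromosome 18 missed it without pair 3 (adjusted p = 0.0609) and with no minimum score (0.117). Chromosome 22 missed it without any one pair (adjusted p = 0.0715 to 0.120) and with no minimum score (0.155). With sites at other bases of the same libraries in place of naked DNA, a setting chosen after the data were seen, chromosomes 5 and 20 were each at 0.025 (adjusted p = 0.00887) and chromosome 18 at 0.015 (adjusted p = 0.156). Chromosome 22 then turned to 0.029 (adjusted p = 0.00533), all by limma. On chromosome 5 the solvent pairs, at -0.11, -0.16 and -0.13, all lay below the TMZ pairs, as naked DNA did. On chromosome 18, at -0.078, -0.071 and -0.15, pairs 1 and 2 lay nearer to the TMZ pairs than to naked DNA. On chromosome 22 they stood at -0.19, -0.047 and -0.14, on both sides of the TMZ pairs.

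**Figure D4:**
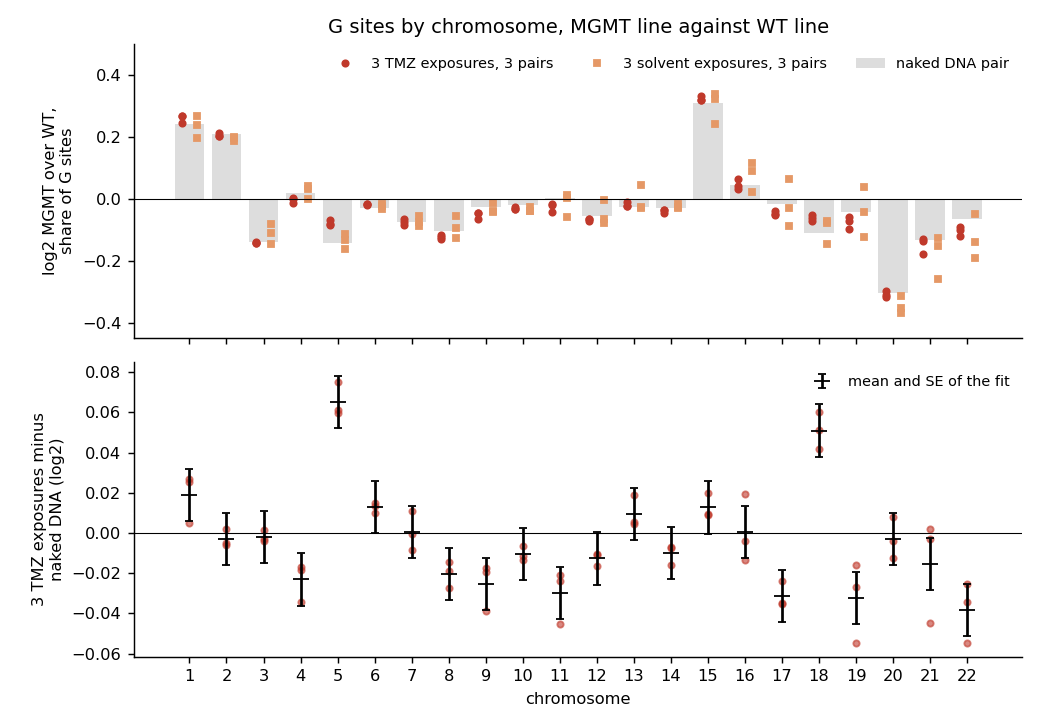
Upper panel, log2 of the MGMT over the WT share of G sites on each autosome, for the 3 pairs after 3 TMZ exposures (circles), the 3 solvent pairs (squares) and the naked DNA pair (grey bars). Lower panel, TMZ pairs minus naked DNA (points) with the mean and SE of the fit, which is the same SE for all chromosomes. Chromosomes 5 (0.065) and 18 (0.051) stand above 0, and chromosome 22 (-0.038) is the lowest.

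On chromosome 5 the difference lay between its parts. G sites from 50 Mb on were counted against those up to 45 Mb, bounds chosen after the data were seen, so the values are a description with no test. The log2 ratio of distal over proximal G sites was 1.35, 1.34 and 1.37 in MGMT replicates 1 to 3 after TMZ, with a counting SE of 0.0055 to 0.0077. It was 1.42, 1.42 and 1.44 in the WT line after TMZ. The groups did not overlap, and the pair differences were -0.069, -0.078 and -0.069.

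In solvent controls and naked DNA the gap was wider because the MGMT line was lower there. MGMT solvent controls had 1.17, 1.20 and 1.24, and naked DNA of that line 1.21, while WT solvent controls had 1.38, 1.39 and 1.40 and WT naked DNA 1.39. Treated MGMT libraries thus lay between the solvent controls and naked DNA of their own line and those of the WT line. They were 0.19, 0.14 and 0.13 above the solvent control of the same number, and WT libraries 0.039, 0.032 and 0.043 above theirs.

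After 3 exposures, sites at bases other than G had the same order. Their ratio was 1.26, 1.26 and 1.30 in treated MGMT libraries, 1.17 ± 0.010 (SD, n = 3) in MGMT solvent controls, 1.21 in MGMT naked DNA, 1.40 ± 0.0090 in treated WT libraries and 1.38 ± 0.020 in WT solvent controls. After 1 TMZ exposure the ratio for G sites was 1.31 ± 0.038 in the MGMT line and 1.39 ± 0.036 in the WT line, and MGMT solvent controls with 1 exposure had 1.23 ± 0.10. Without replicate 1, whose labels are in doubt, treated MGMT libraries had 1.27 and 1.35 at G and their solvent controls 1.18 and 1.17. For other bases it was 1.21 ± 0.017 and 1.37 ± 0.020, and MGMT solvent controls with 1 exposure had 1.20 ± 0.041. Without replicate 1 treated MGMT libraries had 1.19 and 1.21 at other bases and their solvent controls 1.17 and 1.17. As given above, same-numbered libraries of the lines shared positions. Whether treated MGMT libraries held DNA of other cells or reads of other libraries, which would also bear on the differences between the lines, was not tested.

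On chromosome 18, divided at 40 Mb, treated MGMT libraries were again above the solvent controls and naked DNA of their line at G, but at other bases 2 of 3 were below naked DNA. Treated MGMT libraries had distal over proximal G ratios of 0.82, 0.84 and 0.87, against 0.73 ± 0.036 (SD, n = 3) in MGMT solvent controls and 0.77 in MGMT naked DNA. They were 0.13, 0.12 and 0.10 above the solvent control of the same number, and WT libraries 0.13, 0.036 and 0.025. Treated WT libraries had 0.86 ± 0.0031, WT solvent controls 0.79 ± 0.058 and WT naked DNA 0.87. At bases other than G the ratio was 0.76 ± 0.029 in treated MGMT libraries, 0.77 in MGMT naked DNA, 0.68 ± 0.037 in MGMT solvent controls and 0.85 ± 0.014 in treated WT libraries. Chromosomes 1, 2, 15 and 20, where the lines differed most, had smaller differences between treated cells and naked DNA, with corrected values of 0.019, -0.0029, 0.013 and -0.0029.

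**Figure D5:**
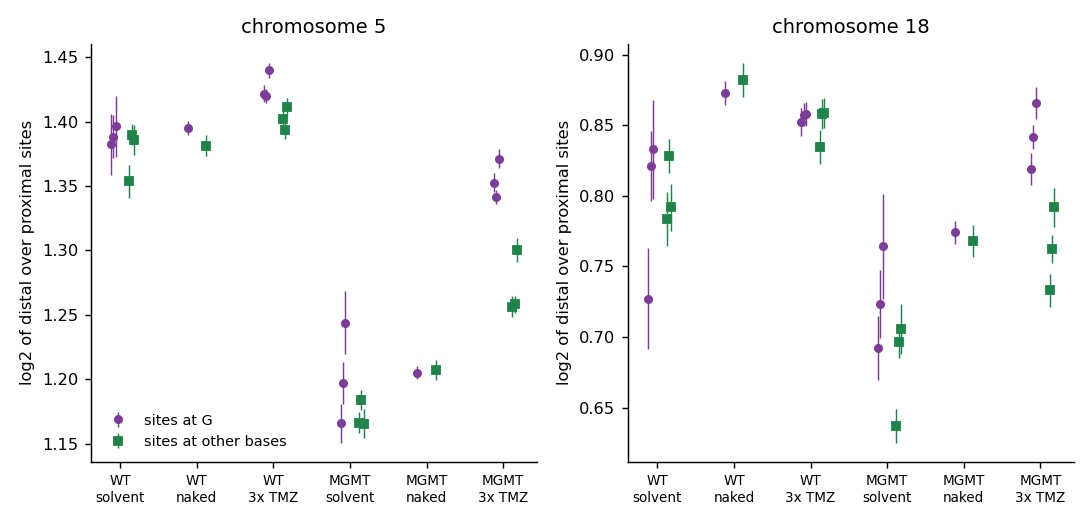
Log2 of distal over proximal sites on chromosomes 5 and 18 (y axes, separate scales that do not start at 0), per library, for sites at G (circles) and at other bases (squares); bars are counting SEs. On chromosome 5 treated MGMT libraries (1.34 to 1.37 for G) lie above MGMT solvent controls and naked DNA (1.17 to 1.24) and below the WT line (1.38 to 1.44).

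At the scale of 1 Mb bins, 1 of 2753 bins passed after correction (0.0363%; limma-voom, 274 with an unadjusted p under 0.05). The fit allowed the naked DNA pair an error assumed to be like that of the cell pairs. It was chr10:122000001-123000000. Its G sites numbered 962, 1912 and 1029 in MGMT replicates 1 to 3 and 1357, 2284 and 1985 in WT replicates 1 to 3, with 2478 and 2060 in naked DNA of the MGMT and the WT line. Relative to library size the pairs had log2 ratios of -0.15, -0.22 and -0.13, and naked DNA 0.091. The corrected log2 ratio was -0.27 (SE 0.059, adjusted p = 0.0416). Solvent pairs stood at 0.27, -0.086 and -0.029. By limma the bin missed the threshold without pair 2 (adjusted p = 0.0944) and held without pair 1 or pair 3. It also missed it without the replicate block, with no minimum score (0.669) and with solvent controls in place of naked DNA (0.590). The same was so with limma-trend (0.172) and with a filter of 1 G site in 1 library (0.0539).

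The bins as a whole followed the naked DNA ratio. Pearson correlations of the pair log2 ratios with that of naked DNA were 0.85, 0.88 and 0.83 over the 2753 bins, which share the lines' copy number. For the solvent pairs, with fewer sites, they were 0.54, 0.71 and 0.61. The SD over bins was 0.20 to 0.21 before correction and 0.10 to 0.12 after it, where counting alone gives a median of 0.067 to 0.078. Without any correction 1169 bins passed (42.5%; limma-voom), 604 higher and 565 lower in the MGMT line. With the naked DNA ratio taken as free of error 736 passed (26.7%), 334 higher and 402 lower. The count thus depends on the error assumed for that single pair, which 1 pair cannot measure.

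Among protein-coding genes, 1 of 16887 tested passed after correction (0.00592%; limma-voom, 878 with an unadjusted p under 0.05). It was MACROD2, a mono-ADP-ribosylhydrolase gene at a common fragile site, at chr20:13995516-16053197. G sites over both strands numbered 2078, 3870 and 2096 in MGMT replicates 1 to 3, against 3586, 5194 and 4605 in WT replicates 1 to 3. The pairs had log2 ratios of -0.43, -0.39 and -0.31, and naked DNA -0.53 (3911 against 4981 sites). The MGMT line was lower in every pair but less so than in naked DNA. The corrected log2 ratio was 0.17 (SE 0.033, adjusted p = 0.0322), and -0.36 without correction. The solvent pairs stood at -0.47, -0.49 and -0.48 for pairs 1 to 3. Pairs 2 and 3 lay nearer to naked DNA than to the TMZ pair of the same number, and pair 1 nearer to its TMZ pair. The call was lost without pair 1 (adjusted p = 0.673) or pair 3 (adjusted p = 0.455), and held without pair 2. It was also lost without the replicate block (adjusted p = 0.999) and with solvent controls in place of naked DNA (adjusted p = 0.926), all by limma-voom.

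Before correction 2316 of 16451 genes passed (14.1%; limma-voom), 1516 higher (9.22%) and 800 lower (4.86%) in the MGMT line. The lists of repair genes, glioblastoma genes and giant genes that follow are to be read beside these shares and beside the median corrected log2 ratio of all genes, 0.0097.

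Direct reversal is the route of MGMT and of the dioxygenases ALKBH2 and ALKBH3, which oxidise methyl groups off other base positions. Of these 3 genes 0 passed with or without correction (limma-voom; 0 with an unadjusted p under 0.05 after correction), and the median corrected log2 ratio was -0.015. The annotated MGMT gene (chr10:129467241-129770983) had 289, 625 and 337 G sites in MGMT replicates 1 to 3 and 382, 603 and 511 in WT replicates 1 to 3. Its pair log2 ratios of -0.049, 0.088 and 0.23 were near that of naked DNA, 0.13, and the corrected ratio was -0.015 (SE 0.10, adjusted p = 0.998, limma-voom). Whether sites of the transfected copy map to this gene was not tested.

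Base excision repair removes methylated purines through the glycosylase MPG and then incision, gap filling and ligation by enzymes such as APEX1, FEN1, LIG1 and LIG3. Of 9 genes 0 passed after correction (0 with an unadjusted p under 0.05; median 0.10) and 1 before it. This was MPG on chromosome 16, a gene of 8.84 kb with few sites. It had 2, 7 and 2 G sites in MGMT replicates 1 to 3, 10, 20 and 26 in WT replicates 1 to 3, and 8 and 20 in naked DNA of the MGMT and the WT line. The log2 ratio was -1.87 before correction (adjusted p = 0.000198) and -0.42 after it (SE 0.69, adjusted p = 0.985), both by limma-voom.

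Mismatch repair recognises the O6-methylguanine to thymine mispair, and its genes carried no corrected difference that passed (0 of 8, and 0 with an unadjusted p under 0.05, limma-voom; median 0.10). Before correction 3 of 8 were higher in the MGMT line, among them PMS1, a partner of MLH proteins, at 0.29 (adjusted p = 0.0430) and EXO1, the exonuclease of the pathway, at 0.46 (adjusted p = 0.0110). Naked DNA had 0.22 in both genes, and both lie on chromosomes with more sites in the MGMT line, 2 and 1.

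Of 13 glioblastoma genes, 10 were tested, 0 passed after correction (1 with an unadjusted p under 0.05, limma-voom; median 0.060) and 2 before it. NF1, a negative regulator of RAS, had a log2 ratio of -0.64 (adjusted p = 4.02e-12) against -0.78 in naked DNA, and PIK3CA, a PI3-kinase catalytic subunit, had -0.43 (adjusted p = 0.00570) against -0.23 in naked DNA. PDGFRA, a receptor tyrosine kinase, had the largest corrected value of the list, 0.67 (SE 0.21, adjusted p = 0.779, limma-voom), with pair ratios of -0.020, 0.40 and 0.24 and -0.40 in naked DNA.

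The 10 giant genes, each with 699 to 5194 G sites per library, gave the most precise values per gene. MACROD2 passed after correction, and 5 passed before it, 1 higher and 4 lower in the MGMT line. CNTNAP2, a neurexin family gene, was higher by 0.22, with 0.16 in naked DNA. IMMP2L, a mitochondrial peptidase subunit, had -0.45 with -0.38 in naked DNA, and WWOX, an oxidoreductase at a fragile site, had -0.19 with -0.26 in naked DNA. The corrected log2 ratios of the list ran from -0.065 to 0.17 with a median of 0.069, against 0.0097 over all 16887 genes tested. Of the 10 genes 3 had an unadjusted p under 0.05 (limma-voom), and all 3 pairs were higher after correction in 5 and lower in 0. Over all 16887 genes tested the counts were 3700 higher and 4123 lower. The mismatch repair list had 4 of 8 higher and 0 lower, so this count was not particular to giant genes.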

How the data were processed

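O6-MeG-seq was run on genomic DNA. Per the labels' protocols, sheared DNA with adapters was immunoprecipitated for O6-methylguanine, a stalled polymerase marked the lesion, and hybridisation took out unwanted fragments. The submitters' processing notes name GRCh38 with Trimmomatic 0.38 and 0.39, cutadapt, Bowtie2 2.3.5.1, GATK 4.2.0.0, SAMtools 1.12, bedtools 2.29.2 and FastQC 0.11.9, without their roles. The deposited lists, which have no header, give contig, position counted from 0, strand, base and a whole-number score from 0 to 42 per site. What the score measures and how duplicates were handled are not given in the sources used here. The 6 libraries held 4702141 to 8682648 sites with a score of at least 30.

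From these, shares, contexts and numbers of G sites per feature were computed with Python 3.11.15, numpy 2.4.6, pandas 2.3.3, R 4.3.3 and limma 3.58.1. Single values were compared as 3 same-numbered pairs by exact two-sided sign flips. Bins, genes (RefSeq protein-coding, both strands) and chromosomes were fitted with limma and a pair term over 8 libraries, the 6 and the 2 naked DNA libraries, which were given 1 pair term although their replicate numbers (3 and 2) differ. The contrast was MGMT minus WT in cells less that in naked DNA, with 2 residual degrees of freedom per feature before limma pooled variances over features. For chromosomes the pooling was complete and all had the same SE. The naked DNA pair leaves no residual, so its error was assumed to be like that of the cell pairs. For bins and genes voom was used with trimmed-mean sizes (30% of ratios, 5% of averages), a prior of 0.5 and at least 10 G sites in at least 3 libraries. Benjamini-Hochberg adjusted p at or below 0.05 was a call. GC content came from sites of the solvent controls with 1 exposure, which include the library whose label is in doubt. Gene strand, known for 79.0% of genes, came from the promoter table, whose bases matched all 560806 deposited sites inside it. On simulated data the fit recovered 198 of 200 bins and 86 of 200 genes changed 2-fold, with 11 and 3 false calls. A 2-fold change is larger than any corrected difference called here. The naked DNA pair was simulated with the spread of the cell pairs, which is the assumption of the fit. The simulation thus does not measure how well differences of the called size are found. Named bins and genes were those past the threshold with all 3 pairs in that direction, plus the lists, and the 3 contexts with the largest mean difference each way. Comparisons, lists and rules were chosen with earlier results of these data known.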

Additional observations from a re-analysis of the deposited data

How the results depend on the processing

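The 10 single values kept their direction in 69 of 72 alternatives and turned in 3. For each of the 10, the alternative without the replicate block leaves the mean unchanged by construction, so its direction was fixed in advance. Where all 3 pairs had the same sign, leaving out 1 replicate could not turn the direction either. The count of kept directions is therefore no measure of stability. Their exact tests cannot pass 0.05 under any of these settings, so their side of the threshold, like the 0 contexts called in 12 of 12 alternatives, says nothing about stability. The counts of called bins, genes and chromosomes were equal to those in the report in 5 of 34 alternatives, lower in 17 and higher in 12. The named bin, gene and chromosomes kept direction and call in 22 of 46, lost the call in 20 and turned in 4. Called bins, 1 in the report, numbered 0 with no minimum score (197 with an unadjusted p under 0.05, limma), with solvent controls in place of naked DNA (251), with limma-trend and median-of-ratios sizes (209), with a filter of 1 G site in 1 library (274) and in bins of 250 kb (757). They numbered 5 with total G sites as sizes, 4 in 5 Mb bins, 736 with the naked DNA ratio taken as exact, 1169 without correction, and 1 to 6 without 1 replicate. Called genes, 1 in the report, numbered 0 with solvent controls (1020 unadjusted), limma-trend (476) or total sizes (861), 2259 with the exact ratio, 2316 without correction, and 0 to 1 without 1 replicate (836 and 899 unadjusted where 0). Called chromosomes, 3 in the report, numbered 1 with no minimum score (chromosome 5), 11 with the exact ratio, 21 without correction and 1 to 2 without 1 replicate.

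Signs turned for the GC comparison with solvent pairs (0.0057), for the transcribed strand without correction (0.0021) or without replicate 2 (-0.015 to 0.0041 without 1 replicate), for MACROD2 (-0.36), chromosome 5 (-0.078) and chromosome 18 (-0.060) without correction, and for chromosome 22 against sites at other bases (0.029). The first and the last of these settings differ only in what stands for the lines' DNA content, and the cause was not tested.

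Same-numbered libraries deviated together with correlations of 0.39, 0.076 and 0.21 over bins, so not all pairs exceed 0.1 and the pairing is not shown by the bins, although same-numbered libraries also shared more positions at bases other than G than others did. MGMT replicate 2 correlated more with WT replicate 3 (0.27). Without the replicate block, 0 bins (113 unadjusted, limma), 0 genes (702) and 2 chromosomes, 5 and 18, passed. The exact permutation test of 3 libraries against 3 then gave p = 0.3 for the G share and for the purine share, where 0.1 is the smallest possible. The block left out together with the exact ratio gave 292 bins, and together with the correction 926; both were chosen after the data were seen. The bin on chromosome 10 and MACROD2 lost their calls without the block, as did chromosome 22.

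Precision was limited by the single naked DNA pair and 2 residual degrees of freedom, by small genes with few G sites, and by saturation of M. Thinning to the smallest library, which gave 0.48 for M, cannot undo that saturation. No thinning was run for the G share, since lists of distinct positions do not thin like reads.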

Other observations

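Sites at bases other than G made up the rest of each list, and all 3 other bases had a larger share in the MGMT line. A was 1.26 ± 0.572 points higher (SD of 3 pairs), C 0.964 ± 1.09 and T 1.72 ± 1.17, each in 3 of 3 pairs. Since the shares of all bases make up the whole of a library, this follows in part from the lower G share. It is no separate result. T was the most frequent of them in MGMT replicate 1, at 19.5%, and A in the other 2 MGMT libraries and in 2 of the 3 WT libraries.

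Around gene starts, G sites in treated cells were below the naked DNA of the same line, relative to the flanks 5 to 10 kb away. In the 500 bp before the start the log2 ratio to naked DNA averaged -0.18 in the MGMT line and -0.16 in the WT line, and in the 500 bp after it -0.18 and -0.12. MGMT replicate 1 was the lowest library after the start, at -0.30, and WT replicate 3 the highest, at -0.017. The pair differences there were -0.15, 0.067 and -0.11, so the lines did not differ beyond the spread between pairs (-0.063 ± 0.12, SD, no test). By 2 kb on either side the ratios of both lines were within 0.05 of the flanks.

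By GC content, the corrected log2 ratio of MGMT over WT ran from 0.035 ± 0.018 (SD of 3 pairs) in the fifth of bins with the lowest GC, with a median of 35.3%, through 0.030, 0.0067 and -0.0065 to -0.034 ± 0.017 in the fifth with the highest, with a median of 46.5%. The solvent pairs gave 0.036 ± 0.071 and -0.039 ± 0.096 at the ends, with opposite signs between pairs 1 and 2.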
